A study of Homo sapiens with 6 samples.

Results

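Transcripts of 10 subunits of the SWI/SNF chromatin remodelling complex were followed in neuroblastoma cells that carried a hairpin against BRG1, the catalytic ATPase of that complex. The genes were taken by symbol: the PBAF subunits PHF10, PBRM1 and BRD7, the canonical BAF subunits ARID1A and ARID1B, the GBAF subunits BICRA and BICRAL (older symbols GLTSCR1 and GLTSCR1L), and the shared subunits BCL7A, BCL7B and BCL7C. All 10 had a named probe set, 1 each, among 14883 genes with a symbol. The cells were SK-N-BE(2), an established human neuroblastoma line known for MYCN amplification. One group was infected with the pLKO-shBRG1 lentivirus (shBRG1, n = 3) and the other with the pLKO-NSC lentivirus, a non-silencing control (NSC, n = 3). All cells grew in the same supplemented medium, and total RNA was taken 48 h after infection and hybridised to 1 Affymetrix array per sample. The labels name no selection of infected cells. In such bulk RNA, fewer cells of a type and less RNA per cell cannot be told apart.

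SWI/SNF complexes use ATP to slide or evict nucleosomes and so open enhancers and promoters. They are built in alternative forms around BRG1 or its paralog BRM. Canonical BAF is marked by an ARID1 subunit, PBAF by polybromo, ARID2, BRD7 and PHF10, and GBAF, also called non-canonical BAF, by a BICRA or BICRAL subunit with BRD9, while BCL7 proteins sit beside the ATPase in every form. During neural development PHF10 belongs to the progenitor version of the complex and gives way to DPF subunits as neurons mature.

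Of the 10 subunits, 3 were lower and 2 higher in shBRG1 cells, and 5 were not past an adjusted p of 0.05 (limma over all 14883 genes, Benjamini-Hochberg adjustment). Over all genes 17.0% were called, 9.78% higher and 7.19% lower. The lower subunits were PHF10 and PBRM1 of PBAF and the shared BCL7A. The higher ones were both GBAF subunits, BICRA and BICRAL, and neither canonical BAF subunit was called. The probe set rule used only the mean of the 6 arrays. The genes themselves were proposed with earlier results of this comparison in view, so the counts and adjusted p-values describe the members and nothing is read from the share called.

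The 6 arrays had medians between 3.77 and 3.84 on the log2 scale, and array pairs of a group correlated at 0.9907 to 0.9925 against 0.9860 to 0.9881 between groups. The labels do not say that the 3 infections of a group were separate cultures, so the p-values measure no more than the spread among these 6 samples, which could be technical. Depletion of BRG1 itself was not analysed here, since SMARCA4 was not among the named genes, and the groups rest on their labels. Of 13 neuroblastoma markers 11 were measured. Their mean log2 level per array was 9.37 to 9.41 in shBRG1 and 9.62 to 9.65 in NSC cells. Of the 11, all at or above the level of the median gene, 7 were called lower in shBRG1 cells, against 7.19% of all genes. The other 4 were not past the threshold, with changes of 0.21 (GATA3), 0.11 (TH), 0.08 (DBH) and 0.06 (DDC). Schwann cell markers (4 of 6 measured) averaged 3.80 to 3.91 in shBRG1 and 4.11 to 4.19 in NSC cells, against 5.09 for the median gene. Only DCN and LUM were measured of 6 fibroblast markers, and both were higher, with a mean of 6.94 to 7.11 in shBRG1 and 6.52 to 6.70 in NSC cells. CD14 and CD68 were the only measured ones of 5 immune markers, with a mean of 5.55 to 5.82 in shBRG1 and 5.59 to 5.70 in NSC cells. The part of these marker shifts in the subunits' changes was not tested.

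Promoter sequences are shown for the PBAF and GBAF subunits that moved in opposite directions. RefSeq windows of 300 bases, from 250 bases before to 50 bases after an annotated start, were available for all 10 genes as 16 windows (GRCh38.p14). The first listed window of each gene is printed 5′ to 3′ along its own strand. Capitals mark every match, on either strand, to 7 short motifs, and overlapping matches run together. The E-box was searched as CACGTG and the GC box as GGGCGG. The CCAAT box was searched by its own letters and the core of the cAMP response element (CRE) as TGACGT. For the factors NRF1, ETS and YY1 the letters were, in this order, TGCGCA for part of the NRF1 site, CCGGAAG for the ETS site and GATGGC for the YY1 core.
PHF10, chr6:169724451-169724750, minus strand: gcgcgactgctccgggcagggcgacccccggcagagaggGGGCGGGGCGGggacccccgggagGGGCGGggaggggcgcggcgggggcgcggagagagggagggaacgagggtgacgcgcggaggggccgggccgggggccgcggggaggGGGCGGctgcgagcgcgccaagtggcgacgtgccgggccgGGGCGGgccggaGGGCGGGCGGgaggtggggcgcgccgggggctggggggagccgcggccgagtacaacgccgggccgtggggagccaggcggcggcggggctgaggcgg
PBRM1, chr3:52685864-52686163, minus strand: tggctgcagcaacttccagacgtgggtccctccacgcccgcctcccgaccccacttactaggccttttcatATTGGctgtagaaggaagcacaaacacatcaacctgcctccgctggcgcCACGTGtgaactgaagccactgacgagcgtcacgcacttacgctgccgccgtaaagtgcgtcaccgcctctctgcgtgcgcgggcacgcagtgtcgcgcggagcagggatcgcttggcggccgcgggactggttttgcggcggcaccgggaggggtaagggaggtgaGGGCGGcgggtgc
BICRA, chr19:47607946-47608245, plus strand: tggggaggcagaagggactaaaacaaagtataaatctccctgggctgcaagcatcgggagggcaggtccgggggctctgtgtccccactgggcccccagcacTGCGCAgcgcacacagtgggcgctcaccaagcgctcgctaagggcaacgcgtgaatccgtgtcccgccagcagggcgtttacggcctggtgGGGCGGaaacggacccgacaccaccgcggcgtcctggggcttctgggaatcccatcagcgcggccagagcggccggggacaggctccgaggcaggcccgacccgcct
BICRAL, chr6:42746737-42747036, plus strand: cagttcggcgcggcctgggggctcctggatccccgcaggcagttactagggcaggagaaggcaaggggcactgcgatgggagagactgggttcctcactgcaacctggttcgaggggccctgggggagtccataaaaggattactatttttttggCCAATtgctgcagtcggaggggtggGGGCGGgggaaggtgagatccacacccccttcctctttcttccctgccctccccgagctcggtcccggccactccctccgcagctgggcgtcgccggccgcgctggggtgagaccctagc

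The PHF10 window is 85.3% G and C, against a median of 58.7% over 35116 RefSeq promoter windows, and holds 7 GC boxes. The PBRM1 window, at 65.3%, has 1 E-box, the letters bound by MYC family factors, with 1 CCAAT box and 1 GC box. A second PBRM1 window, not printed, is at 82.3% and has 6 GC boxes and no E-box or CCAAT box. The BICRA window has 1 GC box and 1 NRF1 match, and the BICRAL window 1 GC box and 1 CCAAT box. GC boxes occurred in at least 1 window of all 10 genes (14 of 16 windows) and in 45.0% of all RefSeq windows. The letters of the GC box are only G and C, and 14 of the 16 windows were above the median of 58.7%. The part of this G and C content in the matches was not tested. E-boxes occurred in 2 of the 16 windows, 1 of PBRM1 and 1 of BCL7B, against 7.26% of all windows. CCAAT boxes were present in 4 of the 16 windows (34.6% of all windows), 1 each of ARID1B, BCL7B, BICRAL and PBRM1. NRF1 matches were present in 2 of the 16, of BICRA and BCL7A (8.24% of all windows), the ETS site in 1, of BCL7B (10.3%), and the YY1 core in 1, the second window of BICRAL (12.9%). No CRE core was found in the 16 windows (7.98% of all windows). No motif was shared by the lower genes PHF10, PBRM1 and BCL7A and missing from the higher genes, since the GC box, their only common match, was also present for BICRA and BICRAL.

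PHF10, a PHD finger protein that is incorporated into PBAF, had the largest change of the 10. Its log2 values were 6.93, 7.26 and 7.20 in shBRG1 cells, against 8.26, 8.06 and 8.02 in NSC cells. All shBRG1 arrays lay below all NSC arrays, and the gap between the groups was wider than the range within either. The mean was 7.13 ± 0.18 in shBRG1 and 8.11 ± 0.13 in NSC cells (SD, n = 3 each), a 1.98-fold lower level (log2 change -0.98, SE 0.11, 95% interval -1.24 to -0.72, adjusted p = 0.00172 with limma). The change was -1.05 to -0.88 over 14 alternatives of the processing and stayed past the threshold in all of them (adjusted p 1.33e-05 to 0.0106).

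PBRM1, also called BAF180 or polybromo, carries the tandem bromodomains by which PBAF reads acetylated histones. It had log2 values of 8.35, 8.38 and 8.31 in shBRG1 cells, against 8.93, 8.68 and 8.73 in NSC cells. The shBRG1 values were close together and all below the NSC values, among which replicate 1 was highest. PBRM1 was 1.35-fold lower (change -0.44, SE 0.08, adjusted p = 0.0126 with limma), and its adjusted p ranged from 0.000392 to 0.0490 over the 14 alternatives. BRD7, the bromodomain subunit that joins PBAF together with ARID2, had 7.54, 7.43 and 7.46 in shBRG1 cells, against 7.58, 7.64 and 7.75 in NSC cells. The groups did not overlap, but the change was small at -0.19 (95% interval -0.36 to -0.01 before adjustment) and not past the threshold (adjusted p = 0.138, and 0.0491 when genes dimmer than the median gene were left out).

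**Figure D1:**
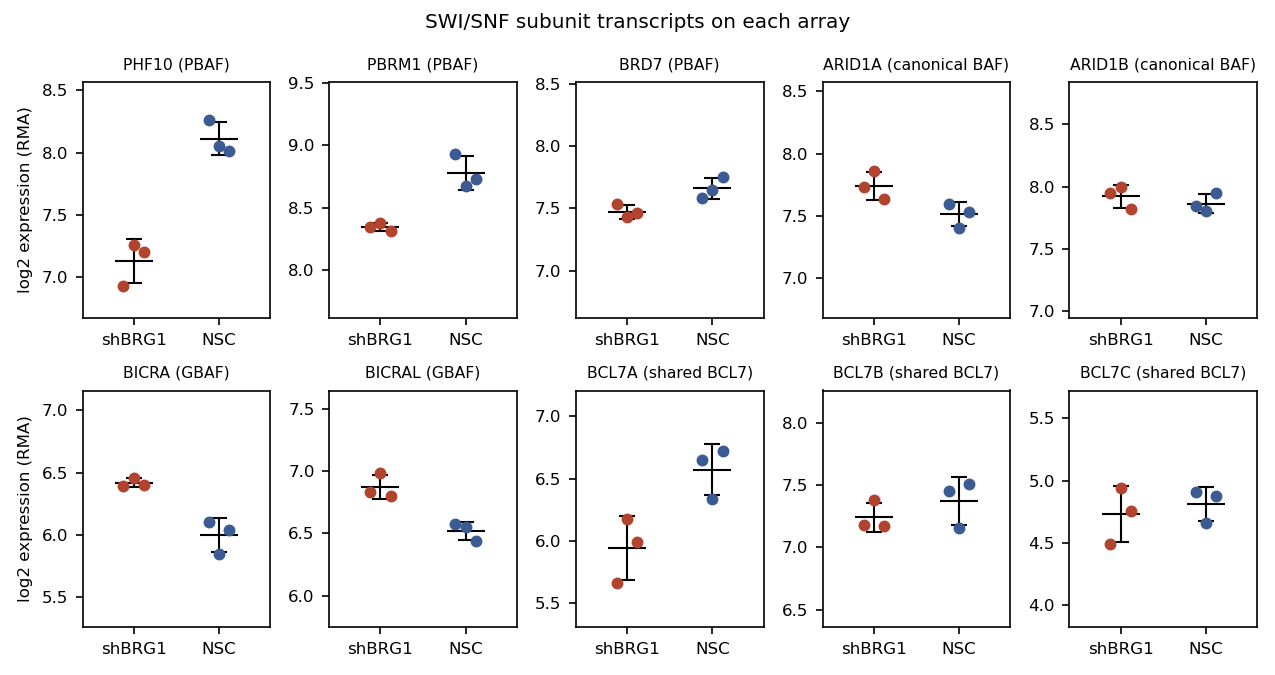
Log2 expression of the 10 subunits on each array, with shBRG1 arrays left and NSC arrays right in each panel (points: arrays, bar: mean, whiskers: SD, n = 3), all panels spanning the same number of log2 units. PHF10 has the widest gap, at 6.93 to 7.26 in shBRG1 against 8.02 to 8.26 in NSC cells, while the points of ARID1B, BCL7B and BCL7C overlap between groups.

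ARID1A and ARID1B are mutually exclusive DNA-binding subunits that define canonical BAF. ARID1A had log2 values of 7.73, 7.86 and 7.64 in shBRG1 cells, against 7.60, 7.41 and 7.54 in NSC cells. The groups were separated by a narrow margin, and the change of 0.23 (SE 0.09, 95% interval 0.03 to 0.43 before adjustment) had an adjusted p of 0.122 with limma. It was past the threshold with dim genes left out (adjusted p = 0.0473) and with trend and robust options (0.0448), and not in the other 12 alternatives. ARID1B had 7.95, 7.998 and 7.82 in shBRG1 cells, against 7.84, 7.80 and 7.95 in NSC cells. These values overlapped, with a change of 0.06 (95% interval -0.12 to 0.24, adjusted p = 0.684) that turned to -0.005 after cyclic loess scaling.

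BICRA and its paralog BICRAL are the scaffold-like subunits that distinguish GBAF and are thought to take the place of an ARID subunit. BICRA had log2 values of 6.39, 6.46 and 6.40 in shBRG1 cells, against 6.11, 5.84 and 6.04 in NSC cells. All shBRG1 values were above all NSC values, and NSC replicate 2 was the lowest. BICRA was 1.34-fold higher (change 0.42, SE 0.09, adjusted p = 0.0148 with limma). The call was lost without shBRG1 replicate 2 (adjusted p = 0.0515) and when every probe set was tested (0.0547), in a range of 0.00346 to 0.0547 over the alternatives.

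BICRAL had log2 values of 6.84, 6.98 and 6.80 in shBRG1 cells, against 6.57, 6.55 and 6.44 in NSC cells. Again no shBRG1 array reached down to an NSC array. BICRAL was 1.28-fold higher (change 0.35, SE 0.08, adjusted p = 0.0221 with limma), with a change of 0.28 to 0.39 over the alternatives. Its call was lost without NSC replicate 2 (adjusted p = 0.0526), NSC replicate 3 (0.0701), shBRG1 replicate 1 (0.0556) or shBRG1 replicate 2 (0.0651). The change was then, in the same order, 0.37, 0.31, 0.37 and 0.30. With 1 array left out fewer genes were called in all, 1604 to 1840 against 2525. BICRAL passed in 8 of 14 alternatives, with adjusted p-values of 0.00517 to 0.0755.

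BCL7A, BCL7B and BCL7C encode small related proteins, of which BCL7A was first found at a translocation in lymphoma. BCL7A had log2 values of 5.67, 6.17 and 5.99 in shBRG1 cells, against 6.65, 6.34 and 6.72 in NSC cells. The groups did not overlap, yet both were wide, with an SD of 0.26 in shBRG1 and 0.20 in NSC cells. BCL7A was 1.54-fold lower (change -0.63, SE 0.15, adjusted p = 0.0284 with limma). Its call was lost without NSC replicate 1 (adjusted p = 0.0834), NSC replicate 3 (0.0845), shBRG1 replicate 1 (0.0691) or shBRG1 replicate 3 (0.0703). The change was then, in the same order, -0.59, -0.55, -0.49 and -0.65. BCL7A passed in 8 of 14 alternatives, with adjusted p-values of 0.00485 to 0.0845.

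BCL7B had 7.18, 7.38 and 7.18 in shBRG1 cells, against 7.46, 7.15 and 7.51 in NSC cells. BCL7C, the only member dimmer than the median gene, had 4.49, 4.94 and 4.76 in shBRG1 cells, against 4.91, 4.66 and 4.88 in NSC cells. Both overlapped between the groups, with changes of -0.13 (95% interval -0.39 to 0.13, adjusted p = 0.496) and -0.08 (-0.38 to 0.21, adjusted p = 0.715). The BCL7C change was 0.03 without shBRG1 replicate 1.

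**Figure D2:**
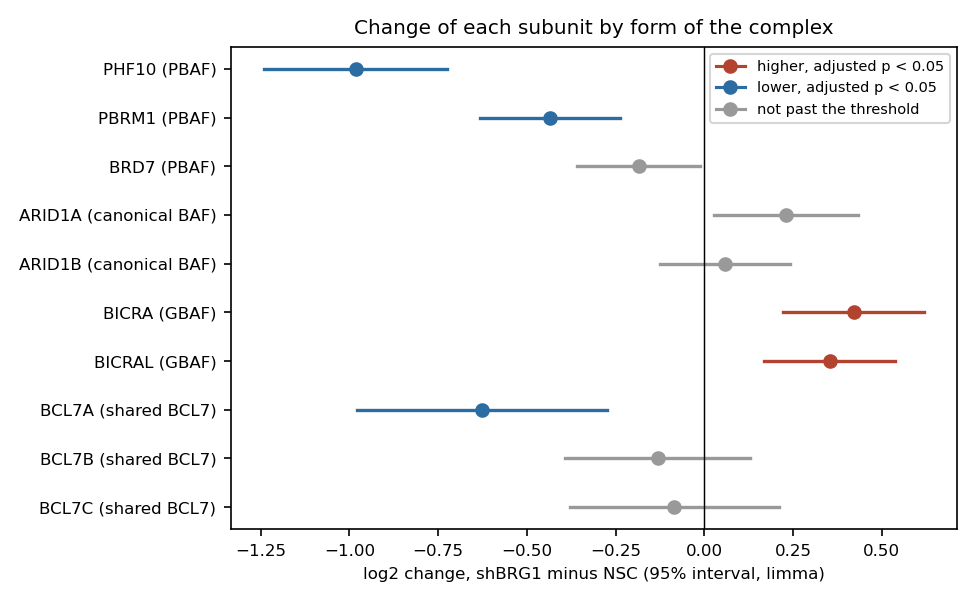
Log2 change of each subunit, shBRG1 minus NSC, with its unadjusted 95% interval from limma, grouped by form of the complex and coloured by call. PBAF subunits lie at -0.98 to -0.19, the GBAF subunits at 0.42 and 0.35, and the canonical BAF subunits at 0.23 and 0.06.

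Set side by side by form, the mean change was -0.53 over the 3 PBAF subunits and 0.14 over the 2 canonical BAF subunits. It was 0.39 over the 2 GBAF subunits and -0.28 over the 3 BCL7 genes. The medians were -0.44 for PBAF, with PHF10 at -0.98, and -0.13 for the BCL7 genes, with BCL7A at -0.63. These values cover the listed members only and do not stand for a whole complex. As a description of single arrays, the PBAF subunits averaged -0.58, -0.50 and -0.53 from their NSC means on the shBRG1 arrays, and 0.08, -0.06 and -0.02 on the NSC arrays. The GBAF subunits averaged 0.36, 0.46 and 0.34 on the shBRG1 arrays, and 0.08, -0.06 and -0.02 on the NSC arrays. The BCL7 genes averaged -0.47, -0.09 and -0.28 on the shBRG1 arrays, and 0.09, -0.20 and 0.12 on the NSC arrays, so the shBRG1 replicate 2 array lay within the NSC range. Of the 10 genes, 7 did not overlap between groups, 4 below and 3 above, where 35.5% of all genes did not overlap (15.3% below and 20.3% above).

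Within a form, the changes of 2 subunits were compared through their difference on each array, over 8 pairs, with a two-sided exact permutation test that cannot go below p = 0.1 for 3 arrays against 3. PHF10 changed by 0.55 more than PBRM1 in the lower direction (difference -0.55, exact p = 0.1, 0.133 after Benjamini-Hochberg adjustment), and by 0.80 more than BRD7 (difference -0.80, exact p = 0.1). The differences on the shBRG1 arrays lay outside those on the NSC arrays for both pairs. BCL7A differed from BCL7B by -0.50 and from BCL7C by -0.54, again with no overlap of the arrays and an exact p of 0.1 each. ARID1A and ARID1B differed by 0.17 and PBRM1 and BRD7 by -0.25, with no overlap and an exact p of 0.1 each. BICRA and BICRAL had changes that differed by 0.07, with overlapping arrays (exact p = 0.7), as did BCL7B and BCL7C (difference -0.05, exact p = 0.6). This exact test cannot pass a threshold of 0.05 for any of the 8 pairs. The subunits were also proposed with earlier results of these arrays in view. The differences and the lack of overlap are therefore a description, and no conclusion about a form is drawn from them.

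**Figure D3:**
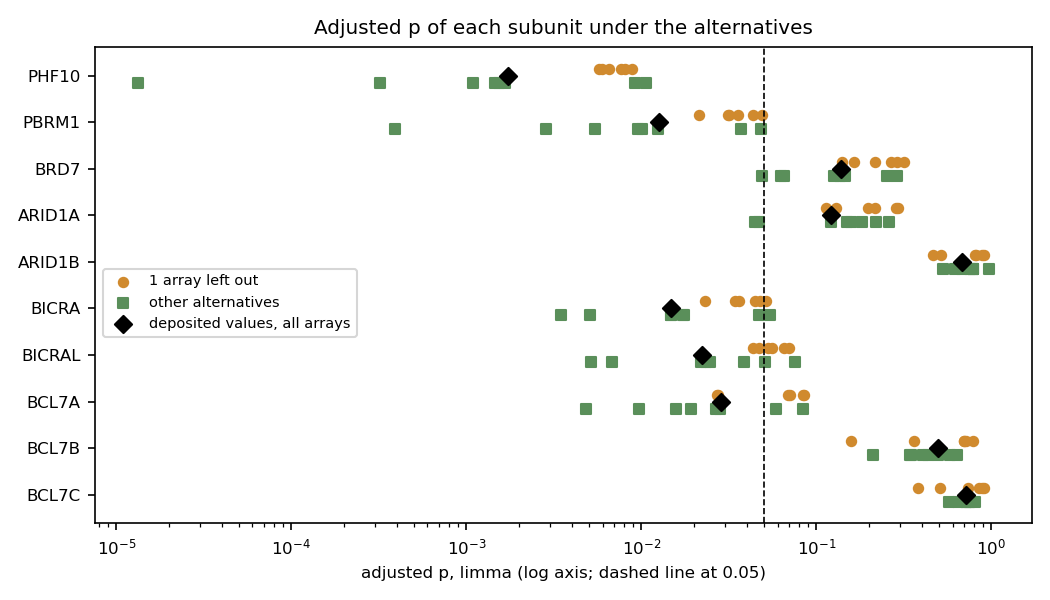
Adjusted p of each subunit with limma (log axis, dashed line at 0.05) for the deposited values with all arrays (diamonds), with 1 array left out (circles) and under the other alternatives (squares). PHF10 and PBRM1 stay left of the line throughout, at no more than 0.0106 and 0.0490, whereas points of BICRA, BICRAL and BCL7A fall on both sides.

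Of 21 other SWI/SNF subunits 5 were measured, and 0 of them passed the threshold with limma (0 higher, 0 lower). Over all genes 17.0% passed. Of the 5, 1 had an unadjusted p under 0.05. BCL11A, a zinc finger protein found in neural BAF, had log2 means of 7.53 ± 0.02 in shBRG1 and 7.34 ± 0.07 in NSC cells (SD, n = 3 each), a change of 0.19 (adjusted p = 0.107, and 0.0325 with dim genes left out). Its paralog BCL11B had a change of 0.15 (adjusted p = 0.663). ACTL6A, the actin-related subunit of proliferating progenitors, had 8.69, 8.74 and 8.69 in shBRG1 cells, against 8.73, 8.72 and 8.74 in NSC cells, a change of -0.03 (adjusted p = 0.831). ACTL6B, which replaces it in neurons, had a change of 0.23 (95% interval -0.05 to 0.51, adjusted p = 0.253). SS18L1, the neuronal counterpart of SS18, had a change of 0.00 (-0.0041, adjusted p = 0.980), and its sign varied between alternatives. REST, the repressor of neuronal genes, had a change of -0.16 (adjusted p = 0.417). Among 5 measured genes of the exchange between progenitor and neuronal BAF, PHF10 was the 1 called (lower), and 4 were not past the threshold. That is 20% called, against 17.0% over all genes. Not analysed here were SS18, BRD9, ARID2, the DPF genes and the subunits of the SMARC series.

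Other chromatin regulators are given for comparison. Among 35 measured subunits of other ATP-dependent remodellers 5 were higher and 2 lower (20% called, against 17.0% over all genes). Of these 35 genes 34 were at or above the level of the median gene, so all genes are a dimmer background. With dim genes left out 7 remodeller genes were higher and 3 lower, where 3201 of 7442 genes were called. The median change of the 35 was 0.05, against -0.11 over the 10 subunits and 0.01 over all genes. INO80C, a subunit of the INO80 complex, was 2.29-fold lower (change -1.20, adjusted p = 0.000221), and ACTR6, the actin-related subunit of SRCAP, 1.93-fold lower (-0.95, adjusted p = 0.00087). EP400, an ATPase of the TIP60 complex, was higher (0.40, adjusted p = 0.00763), as were the NuRD subunit MTA1 (0.38), the deacetylase HDAC2 (0.32) and the INO80 ATPase itself (0.35). The fifth higher gene, GATAD2A (0.30), another NuRD subunit, was named after its value was seen. As the mean over its probe sets HDAC2 had a change of 0.165 and no call (adjusted p = 0.145). INO80C, ACTR6 and EP400 passed in all 14 alternatives. MTA1 lost its call without shBRG1 replicate 1 (adjusted p = 0.0521). HDAC2 did not pass (0.0533 to 0.0742) once any of 4 arrays was dropped, shBRG1 1, shBRG1 2, NSC 2 or NSC 3. INO80 did not pass (0.0694 to 0.0794) once shBRG1 2, shBRG1 3, NSC 2 or NSC 3 was dropped, and GATAD2A once any array was (0.0574 to 0.123). The higher genes numbered 2 after dropping shBRG1 1, shBRG1 2, NSC 2 or NSC 3, then 3 after dropping shBRG1 3, and 1 to 8 over all alternatives, and the lower ones 2 to 4.

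Among 19 measured Polycomb genes 2 were higher and 3 lower (26.3% called, against 17.0% over all genes, median change -0.07). All 19 were at or above the level of the median gene. With dim genes left out 3 of them were higher and 6 lower, where 3201 of 7442 genes were called. PCGF5, a core subunit of a variant PRC1, was 2.31-fold lower (change -1.21, adjusted p = 0.000429), and PCGF3 (-0.49) and the PRC2 accessory factor PHF19 (-0.41) fell too. CBX6, a chromodomain subunit of PRC1, was 2.09-fold higher (1.06, adjusted p = 0.00125) (0.57 as the mean over its probe sets), and PCGF1 was also higher (0.30). PCGF1 lost its call without any 1 array but NSC replicate 3 (adjusted p 0.0580 to 0.0818), leaving 1 higher gene, and 6 genes were lower with dim genes left out or after cyclic loess. Of 9 measured ARID genes outside SWI/SNF, ARID4B (-0.42, adjusted p = 0.00756) and ARID3B (-0.36) were lower and the histone demethylase gene KDM5B (0.44, adjusted p = 0.0125) higher. ARID3B did not pass (0.0673 to 0.0915) once shBRG1 2, shBRG1 3, NSC 1 or NSC 2 was dropped, leaving 1 lower gene. The higher ARID genes numbered 2 without NSC replicate 2 or shBRG1 replicate 3, and 3 with dim genes left out. The called share of the 9 ARID genes was 33.3%, against 17.0% over all genes, and 6 of the 9 were at or above the median gene. The share called was not tested between these lists and the 10 subunits.

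**Figure D4:**
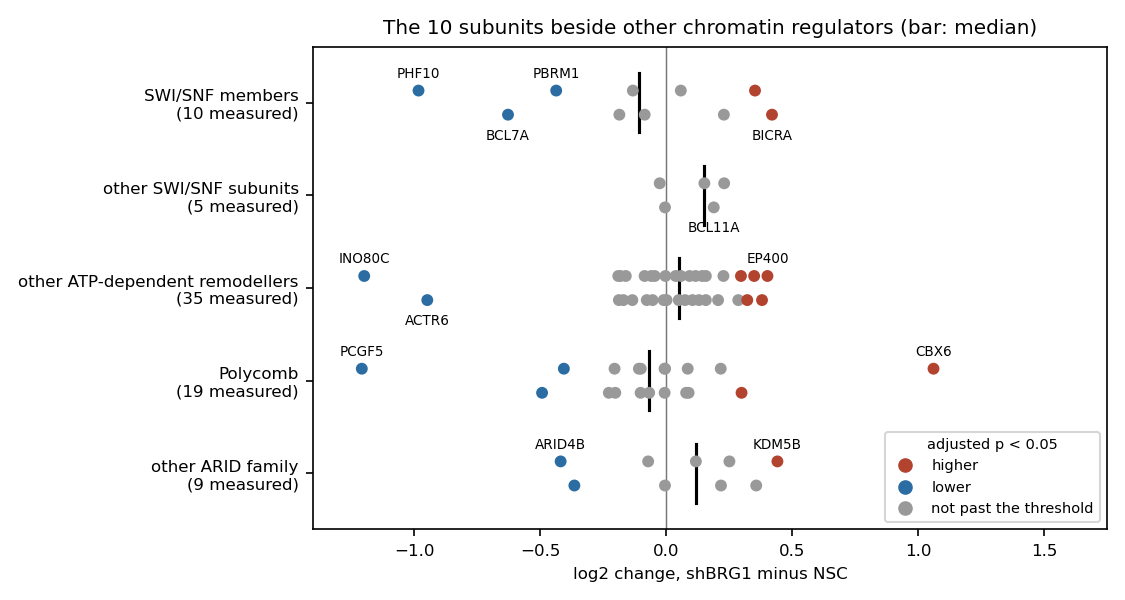
Log2 change, shBRG1 minus NSC, of the 10 subunits and of 4 other lists of chromatin regulators (points: genes, coloured by call, bars: list medians). The 10 subunits spread from -0.98 to 0.42, the 5 other measured SWI/SNF subunits from -0.03 to 0.23, and the 35 other remodeller genes from -1.20 to 0.40.

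The nearest measured gene on each side of every subunit in the GRCh38.p14 gene table gave 20 neighbours, of which 3 were higher and 0 lower. Over all genes 17.0% were called. Both neighbours of BICRA were higher, the non-coding NAPA-AS1 (change 0.49, adjusted p = 0.00828, dimmer than the median gene) and EHD2, a membrane-remodelling ATPase (0.51, adjusted p = 0.00442). EHD2 had 8.12, 8.24 and 8.05 in shBRG1 cells, against 7.68, 7.60 and 7.60 in NSC cells, with no overlap. Beside PBRM1, GLT8D1, a glycosyltransferase gene, was higher (0.45, adjusted p = 0.00768) where PBRM1 was lower. The neighbours of PHF10 had changes of 0.24 (WDR27, adjusted p = 0.0876) and -0.04 (DYNLT2, adjusted p = 0.878), and those of BCL7A changes of 0.12 (CFAP251) and -0.06 (MLXIP). Of the 3 RefSeq starts listed for BICRAL, 1 lies within 1000 bases of TBCC, a tubulin folding cofactor gene on the other strand. TBCC had a change of 0.14 (adjusted p = 0.312), and which BICRAL start the cells used was not measured. GNL3, which starts within 1000 bases of PBRM1 on the other strand, was not analysed here. Nor were BICRA-AS2 and LOC124900417, which start as close to BICRA and ARID1A on the other strand.

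**Figure D5:**
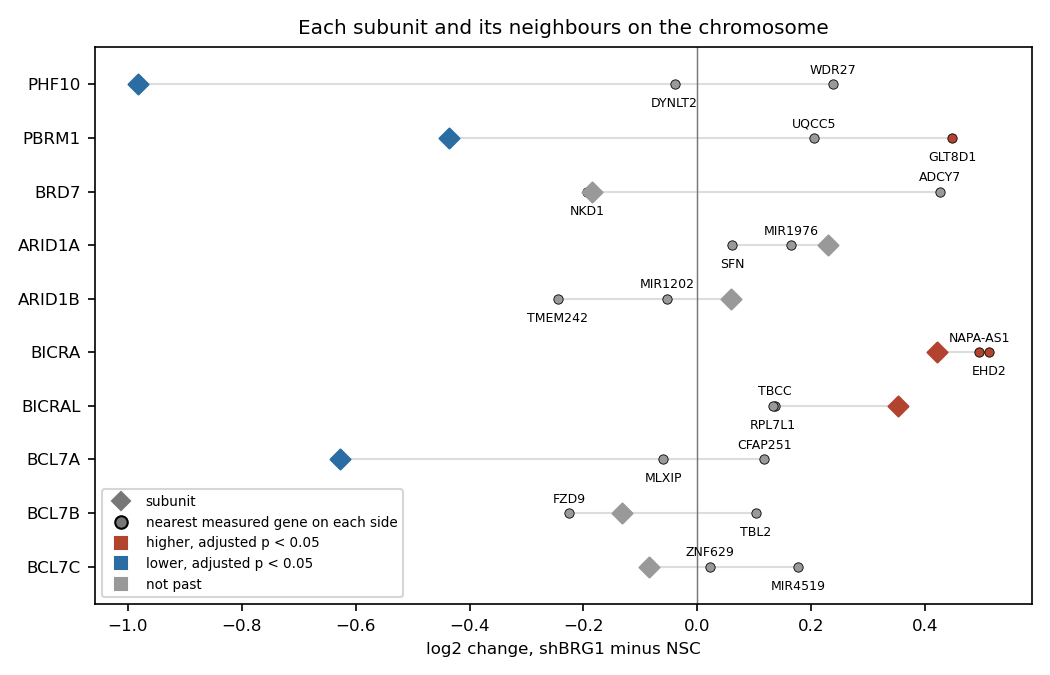
Log2 change, shBRG1 minus NSC, of each subunit (diamonds) and of the nearest measured gene on each side (circles), coloured by call. Both neighbours of BICRA lie to its right at 0.49 and 0.51, and the neighbours of PHF10 lie at -0.04 and 0.24, apart from PHF10 at -0.98.

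The genes most like a subunit over the 6 arrays were found by the root mean square distance between log2 values, each gene centred on its own mean, in log2 units. With 2 groups of arrays such likeness mostly repeats the size of the change, and it is given as a description. Nearest to PHF10 were the exchange factor gene ARHGEF40 (distance 0.067, change -0.89), TMEM108 (0.078, -0.94) and TMEM51 (0.079, -1.02). Nearest to PBRM1 were IFRD1 (0.026, -0.43), the BMP pseudoreceptor BAMBI (0.028, -0.46) and ARID4B (0.035, -0.42). FOXN3, a forkhead repressor, was nearest to BICRA (0.016, 0.39), before TOMM5 (0.020, 0.40) and CNOT11 (0.023, 0.42). FBXO4, an F-box protein gene, was nearest to BICRAL (0.019, 0.35), before WDR70 (0.020, 0.33) and ZFP62 (0.025, 0.34).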

How the data were processed

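Total RNA, 200 ng per sample, of 6 samples of SK-N-BE(2) cells went onto 6 Affymetrix arrays of 1 colour, per the labels' protocols. The deposited values are log2 expression per probe set, and the submitters' processing notes name RMA, oligo 1.27, limma 3.19 and R 3.1.0. RMA gives arrays a common distribution, so a change common to all genes is not visible. The number of arrays limits the precision (median SE of a log2 change 0.09). Of 52299 probe sets 15828 had 1 gene symbol, 0 several and 36471 none, and symbols were updated through gene identifiers of GRCh38.p14. The brightest probe set of a gene by the mean of the 6 arrays was kept. All 14883 genes were tested without a filter using limma 3.58.1 (lmFit, eBayes, two-sided, R 4.3.3), shBRG1 minus NSC, with Benjamini-Hochberg adjustment and a threshold of 0.05. The members and gene lists were chosen with earlier results of these data known. Named were all 10 subunits, every other measured SWI/SNF subunit, up to 6 genes of smallest p per list, called neighbours, and the 3 genes nearest to PHF10, PBRM1, BICRA and BICRAL (no uncharacterised loci or small RNA genes). The remaining neighbours were named after their values were seen. On data simulated with 14883 genes, limma found 51 of 100 genes with a log2 change of 0.5 in size. It found 88 of 100 with one of 1, with 5 unchanged genes among 144 calls. No other genes were changed there, whereas 2525 were called in the deposited values. The adjustment depends on how many genes change, so recovery in these data could differ. Alternatives were centring of arrays, cyclic loess, dim genes left out, averaged probe sets, trend and robust options, array weights, the replicate number as a block, each array left out, every probe set, and an adjusted p of 0.01. Figures used matplotlib 3.10.9.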

Additional observations from a re-analysis of the deposited data

How the results depend on the processing

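Of 149 values of the 10 subunits under alternatives, 126 kept both direction and side of the threshold, 18 lost the call, 3 gained it and 2 turned sign. The sign turned for ARID1B after cyclic loess (-0.005) and for BCL7C without shBRG1 replicate 1 (0.034, in a range of -0.19 to 0.034 with each array left out). SS18L1, of the other subunits, had changes of 0.007 with array weights and -0.063 to 0.036 with each array left out, and the cause was not tested. With dim genes left out 7 of the 9 subunits tested were called (3 higher, 4 lower), and 3201 of the 7442 genes tested. With trend and robust options 6 of 10 subunits (3 higher, 3 lower) and 3306 of 14883 genes were called. The deposited values gave 5 of 10 subunits and 2525 of 14883 genes. With each array left out in turn the subunits called numbered 3 to 4 (0 to 2 higher, 2 to 3 lower), and all genes called 1604 to 1840 (840 to 1055 higher, 694 to 859 lower). At an adjusted p of 0.01, 1 subunit, PHF10, was called (0 higher, 1 lower), and 1086 genes (563 higher, 523 lower). When every probe set was tested, 2 subunits were called, 0 of them higher, beside 2440 of 52299 probe sets (1337 higher, 1103 lower). Deviations of same-numbered arrays correlated at -0.04, -0.14 and -0.03, and 0 of 6 arrays were closest to their own number. These values do not settle whether the replicate numbers pair the samples by design. With the replicate block, 3 subunits were called (1 higher), and 1608 genes, 870 of them higher. Calls split 57.6% higher in the deposited values and 48.1% after cyclic loess. BCL7C was not tested with dim genes left out.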

Other observations

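Single arrays stood in the same rank for many of the 10 subunits. Among the shBRG1 arrays replicate 2 was the highest for 9 of 10 subunits, against 42.5% of all genes. Among the NSC arrays replicate 2 was the lowest for 7 of 10, against 41.0% of all genes. Without shBRG1 replicate 2 the change of BICRA was 0.40 and that of BICRAL 0.30. There 0 subunits were called higher and 3 lower, beside 840 higher and 822 lower of all 14883 genes. Without NSC replicate 2 the changes of BICRA and BICRAL were 0.34 and 0.37. There 1 subunit was called higher and 3 lower, beside 900 higher and 859 lower of all genes.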
